A study of Homo sapiens with 6 samples.

Results

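Red cell membrane skeleton genes are described here in K562 cells after knockdown of PCBP1, an iron chaperone that also binds C-rich RNA. The members are 8 genes, SPTB, ANK1, EPB41, EPB42, SLC4A1, GYPC, RHAG and DMTN, listed by name among the 62252 genes of the deposited tables. The rule uses no measured value, but the members were chosen with earlier results of these data known. GENCODE release 44 assigns 107 of the quantified transcripts to them. K562 is an established human erythroleukemia line. Cells of both groups were transduced with a lentiviral pLKO.1 plasmid and selected with puromycin for 4 days. The shCtrl group carried a short hairpin RNA (shRNA) against luciferase and the shPCBP1 group a hairpin against PCBP1, with 3 poly-A RNA libraries in each group. The effect of PCBP1 depletion was measured with a single hairpin, so it cannot be told apart from other effects of that hairpin. The labels do not say whether replicates were separate transductions, so p-values measure the spread between these libraries, which may be technical.

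The red cell membrane is held in shape by a lattice of spectrin tetramers lying under the lipid bilayer. Spectrin is fixed to the bilayer at ankyrin complexes, where ankyrin joins beta-spectrin to the anion exchanger band 3 and the Rh proteins, and at actin junctions, where protein 4.1 joins spectrin and actin to glycophorin C. Inherited loss of these proteins gives fragile, rounded or elliptical red cells, and their genes are switched on in erythroid cells under GATA1 and KLF1, factors that bind GATA and CACCC-type DNA motifs.

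The regions just upstream of SPTB and EPB41 are shown because both genes rose in shPCBP1 and their promoters differ in matches to the motifs searched here. The sequences are from RefSeq (GRCh38.p14), run 5′ to 3′ on the strand of the gene and end at the base before the first annotated exon. Capitals mark each match to the GATA motifs AGATAA and TGATAA or to the CACCC-type motif CCNCNCCC, on either strand, and CACCC-type matches may overlap each other.

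SPTB upstream, chr14:64879908-64880157, minus strand: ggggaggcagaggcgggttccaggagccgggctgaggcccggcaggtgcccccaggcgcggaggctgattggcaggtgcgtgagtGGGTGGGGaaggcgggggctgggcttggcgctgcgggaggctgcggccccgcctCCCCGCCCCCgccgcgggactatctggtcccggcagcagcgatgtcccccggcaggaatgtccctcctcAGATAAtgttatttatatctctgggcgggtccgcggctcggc
EPB41 upstream, chr1:28886850-28887090, plus strand: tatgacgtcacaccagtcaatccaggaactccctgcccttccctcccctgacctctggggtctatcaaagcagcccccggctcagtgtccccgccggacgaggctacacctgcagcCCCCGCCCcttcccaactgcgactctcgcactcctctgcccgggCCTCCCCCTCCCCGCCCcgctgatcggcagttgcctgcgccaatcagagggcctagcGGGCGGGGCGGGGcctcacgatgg

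The SPTB promoter held AGATAA 42 bases before the RefSeq start site and 3 CACCC-type matches. The EPB41 promoter held no AGATAA or TGATAA and 6 CACCC-type matches. Other GATA forms were not searched. The printed sequences also hold ctatct in SPTB and ctatca in EPB41, which read AGATAG and TGATAG on the other strand. The members with a matching promoter entry were searched over 250 bases before and 50 after the start site. EPB42 held AGATAA at 2 places, RHAG held TGATAA on the other strand beginning 31 bases before its start, and GYPC held neither form. EPB42, GYPC and RHAG held 4, 3 and 1 CACCC-type matches. Of 35116 RefSeq promoters of the same length, 16.3% held AGATAA or TGATAA and 56.2% a CACCC-type match, so both also occur outside these genes. Whether the few members searched differ from those shares was not tested.

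The EPB41 exon of 63 bases that encodes part of the spectrin-actin binding domain is also shown, since its inclusion is a known step of red cell maturation and it is followed among the transcripts. Capitals mark the exon, and the lower case flanks are 50 intronic bases on each side (hg38).

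EPB41 exon, chr1:29060372-29060534, plus strand: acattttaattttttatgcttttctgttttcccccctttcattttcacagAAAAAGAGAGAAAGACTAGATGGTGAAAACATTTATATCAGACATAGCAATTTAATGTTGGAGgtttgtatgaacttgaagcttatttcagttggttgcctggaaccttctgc

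The 50 bases upstream of this exon were 24% C, against a median of 22% over the 37773 cassette exons tested in all genes, of which 43.7% were at or above 24%. The 50 bases downstream held 0 matches to TGCATG, the RBFOX motif, which was present downstream of 2.001% of the cassette exons tested. Its absence from so short a flank is therefore common, and sequence farther into the intron was not searched.

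Depth ran from 67066747 to 140522444 estimated counts per library and was lower in the shPCBP1 libraries than in 2 of the 3 shCtrl libraries. The targeted gene had 37799 to 40566 normalized counts in shCtrl and 6625 to 7277 in shPCBP1, which left 18.1% of its level. All 9 erythroid markers of a list, among them the globins HBG1, HBG2, HBE1 and HBZ, were above 1 TPM in every library. Their summed level was 28760 to 34590 TPM in shCtrl and 32960 to 34390 TPM in shPCBP1. Globins make up most of this sum, with HBG2 alone averaging 13760 TPM in shCtrl, so it says little of the other markers. At a DESeq2 adjusted p under 0.05, 2 of the 9 were higher in shPCBP1 and 1 lower, a share of 33.3% beside 31.2% of all genes. Of the 5 megakaryocyte markers tested, ITGB3 and GP1BB rose by 0.45 and 0.36 on the log2 scale while ITGA2B and GP6 fell by 1.91 and 0.57, and GP9 was listed at 0. The summed megakaryocyte level was 177.1 to 181.7 TPM in shCtrl and 174.6 to 190.9 TPM in shPCBP1. Most of it was GP1BB, at a mean of 134.5 TPM in shCtrl, while ITGA2B went from 14.65 to 3.93 TPM. Summed myeloid markers ran from 58.97 to 65.4 TPM in shCtrl and from 54.8 to 65.62 TPM in shPCBP1, and lymphoid markers from 100.3 to 118.3 TPM and from 91.65 to 104.1 TPM. LYZ averaged 48.7 TPM and CD3D 66.1 TPM in shCtrl, so these sums too say little of the other markers. In bulk RNA fewer cells of a type and less RNA per cell cannot be told apart.

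Of the members, 3 rose and 1 fell in shPCBP1. SPTB (beta-spectrin), ANK1 (ankyrin-1) and EPB41 (protein 4.1R) were higher in shPCBP1 by 1.20-fold, 1.28-fold and 1.09-fold, and DMTN (dematin, which bundles actin and ties the junction to the membrane) was lower, at 0.854 of its shCtrl level. The other 4 members, EPB42, SLC4A1, GYPC and RHAG, did not pass. Passing means a Benjamini-Hochberg adjusted p under 0.05 in the DESeq2 Wald test over all genes. Thus 4 of 8 members passed, where 31.2% of the 17095 genes tested did. By direction, 3 of 8 members were higher, against 17.7% of all genes, and 1 of 8 was lower, against 13.5%. None of the 8 was past an absolute log2 fold change of 1, a size that 1.37% of all genes reached together with a mean count over 10. The median log2 fold change of the members was 0.07, and that of all genes tested was 0.0019. All 8 members had counts enough to be tested.

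Levels per transcript length set the members apart. In TPM, a length-scaled share of the library, RHAG was highest and EPB42 lowest, and 7 of the 8 members were at or above 1 TPM in every library. RHAG averaged 330 ± 9.91 TPM in shCtrl and 349 ± 1.80 TPM in shPCBP1 (SD, n = 3), and GYPC came next with 134.5 ± 5.28 TPM and 138.4 ± 0.753 TPM. ANK1 and EPB41 followed, at 67.9 ± 1.71 TPM and 68.1 ± 0.605 TPM in shCtrl, where their libraries overlapped. In shPCBP1 they stood at 86.1 ± 2.49 TPM and 78.1 ± 0.359 TPM, and every ANK1 value was above every EPB41 value. DMTN (42.8 ± 1.43 TPM in shCtrl), SPTB (25.7 ± 2.28 TPM), SLC4A1 (2.84 ± 1.06 TPM) and EPB42 (1.05 ± 0.327 TPM) came last in both groups. Neighbours in this order did not overlap within a group, except ANK1 and EPB41 in shCtrl. SLC4A1 and EPB42, which encode the most abundant membrane protein of the mature red cell and its binding partner, were thus at a small share of the level of ankyrin in these cells.

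**Figure D1:**
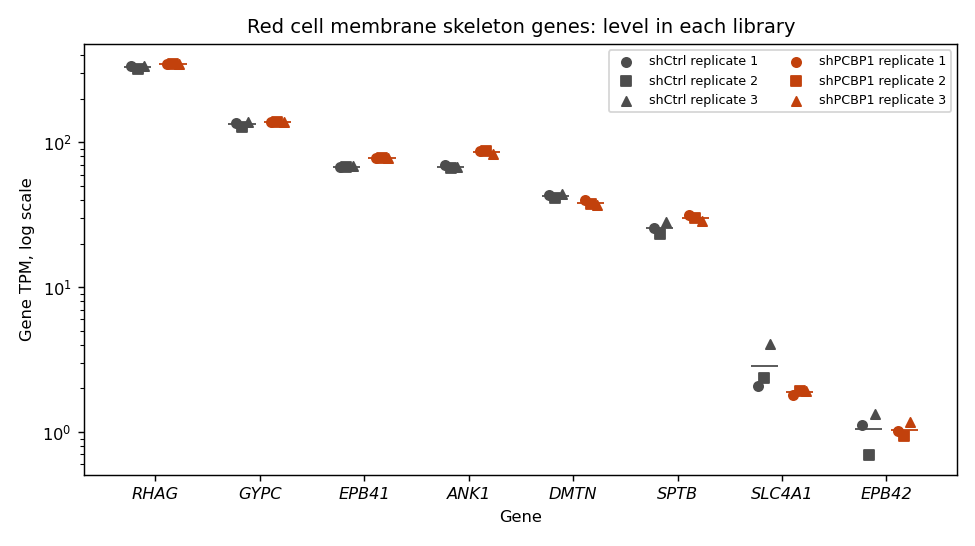
Level of each member gene in each library, as gene TPM on a log axis, with shCtrl in grey, shPCBP1 in orange, a symbol for each replicate number and a line at the group mean. RHAG sits above 300 TPM and EPB42 near 1 TPM, ANK1 and EPB41 move upward in shPCBP1, and shCtrl replicate 3 stands high for SLC4A1 at 4.06 TPM.

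SPTB encodes the beta chain of erythroid spectrin, the rod protein of the lattice. The gene lies on chromosome 14 (64746283 to 64879907, GRCh38, minus strand). Its normalized counts were 14449, 12727 and 15553 in shCtrl, against 18337, 16933 and 16111 in shPCBP1, in the order of replicates 1, 2 and 3 here and below. The groups did not overlap, and the lowest shPCBP1 library was close to the highest shCtrl library. SPTB rose by 0.27 on the log2 scale (SE 0.0615, DESeq2 adjusted p 0.000132). SPTB shares exonic positions with PLEKHG3 on the other strand and with the microRNA gene MIR7855 on its own, and whether counting used strand was not stated, so its count is uncertain to that extent.

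ANK1 encodes the adaptor that holds the spectrin lattice to band 3. It lies on chromosome 8 (41653220 to 41896741, minus strand) and had the lowest p of the members. Its normalized counts were 31216, 28847 and 31634 in shCtrl against 41320, 39166 and 36660 in shPCBP1. Every shPCBP1 library was above every shCtrl library by more than the range within shCtrl. ANK1 rose by 0.35 on the log2 scale (SE 0.0464, DESeq2 adjusted p 1.2e-12). The uncharacterized gene ENSG00000253389 shares exonic positions with ANK1 on the other strand.

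EPB41 encodes protein 4.1R, which strengthens the bond between spectrin and actin. The gene lies on chromosome 1 (28887091 to 29120046, plus strand), and TMEM200B shares exonic positions with it on the other strand. Normalized counts were 28054, 27049 and 28565 in shCtrl against 31417, 30038 and 29917 in shPCBP1. The groups did not overlap, and the spread within each was under 3% of its mean, the smallest in shCtrl among the members. EPB41 rose by 0.13 on the log2 scale (SE 0.0361, DESeq2 adjusted p 0.00251). With offsets for mean transcript length it was 0.22, still past the threshold.

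DMTN was the member that fell. It lies on chromosome 8 (22048995 to 22082527, plus strand). Normalized counts were 6699, 6257 and 6904 in shCtrl against 6076, 5490 and 5404 in shPCBP1. All 3 shPCBP1 libraries were below the lowest shCtrl library. On the log2 scale the change was -0.23 (SE 0.0573, DESeq2 adjusted p 0.000524). With transcript length offsets the value was -0.14 and did not pass (adjusted p 0.118), so the call depends on how transcript length is treated.

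RHAG encodes the Rh-associated glycoprotein, the part of the ankyrin complex needed for Rh antigens to reach the surface (chromosome 6, 49605175 to 49636839, minus strand). Its normalized counts were 44872, 41119 and 44875 in shCtrl against 46382, 46266 and 44793 in shPCBP1, and the groups overlapped. The log2 fold change was 0.07, with a 95% interval from -0.0059 to 0.15 (DESeq2 adjusted p 0.167). In TPM the RHAG groups did not overlap, with 318.9 to 336.4 in shCtrl and 346.9 to 350.3 in shPCBP1. The main model, RHAG-201, did overlap, at 328.8, 310.9 and 329.6 TPM in shCtrl against 322.9, 341.3 and 328.5 TPM in shPCBP1. The minor model RHAG-206 was at 0 TPM in each shCtrl library and at 20.8, 0 and 6.31 TPM in shPCBP1.

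GYPC encodes glycophorins C and D, the membrane anchors of protein 4.1R (chromosome 2, 126656133 to 126696667, plus strand). Its normalized counts were 8865, 8051 and 8918 in shCtrl against 9311, 9063 and 8878 in shPCBP1, which overlap. The log2 fold change was 0.08, with a 95% interval from -0.019 to 0.17 (DESeq2 adjusted p 0.245). The interval is narrow, and its upper end lies below the point estimates for SPTB and ANK1. It overlaps the 95% interval of SPTB, which starts at 0.145, and differences between genes were not tested.

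SLC4A1 encodes band 3, the chloride-bicarbonate exchanger and main ankyrin anchor (chromosome 17, 44248390 to 44268141, minus strand). Its normalized counts were 854, 697 and 1452 in shCtrl against 724, 782 and 718 in shPCBP1. One shCtrl library, replicate 3, stood far above the other 5, and the groups overlapped. The log2 fold change was -0.43, with a 95% interval from -1.09 to 0.22 (DESeq2 adjusted p 0.352). Without shCtrl replicate 3 it was -0.066 (adjusted p 0.777), and without shCtrl replicate 2 it was -0.64 and passed (adjusted p 0.00424). The size of the SLC4A1 difference therefore rests on 1 library. In TPM the groups did not overlap, with 2.09, 2.38 and 4.06 in shCtrl and 1.79 to 1.93 in shPCBP1, and with transcript length offsets the log2 fold change was -0.58 (DESeq2 adjusted p 0.0289). The main model alone, SLC4A1-201, did overlap, at 2.09, 1.74 and 3.515 TPM in shCtrl against 1.71, 1.91 and 1.75 TPM in shPCBP1. The rest of the gene TPM was SLC4A1-204, a retained-intron model with a mean count of 4.1, which also enters the length offsets.

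EPB42 encodes protein 4.2, which steadies the bond between band 3 and ankyrin (chromosome 15, 43197227 to 43221018, minus strand). Its normalized counts were 143.6, 122.8 and 194.3 in shCtrl against 127, 136.5 and 161.9 in shPCBP1. Here too shCtrl replicate 3 was the highest library. The log2 fold change was -0.12, with a 95% interval from -0.63 to 0.38 (DESeq2 adjusted p 0.778), so a change of that size was not detectable at this depth. Without shCtrl replicate 3 the sign changed, to 0.086 (adjusted p 0.865). The same library was highest within shCtrl for HBZ, an embryonic globin, at 38386 normalized counts against 30181 and 23698, and for ALAS2, the erythroid enzyme that begins heme synthesis, at 6553 against 5125 and 4894. In shPCBP1, HBZ was at 42448, 35572 and 33643 and ALAS2 at 4958, 5171 and 4764, so HBZ was highest of all in shPCBP1 replicate 1. The part of these differences between libraries in the values of SLC4A1 and EPB42 was not tested. EPB42 shares exonic positions with ENSG00000285117 on the same strand, so its reads may be split.

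**Figure D2:**
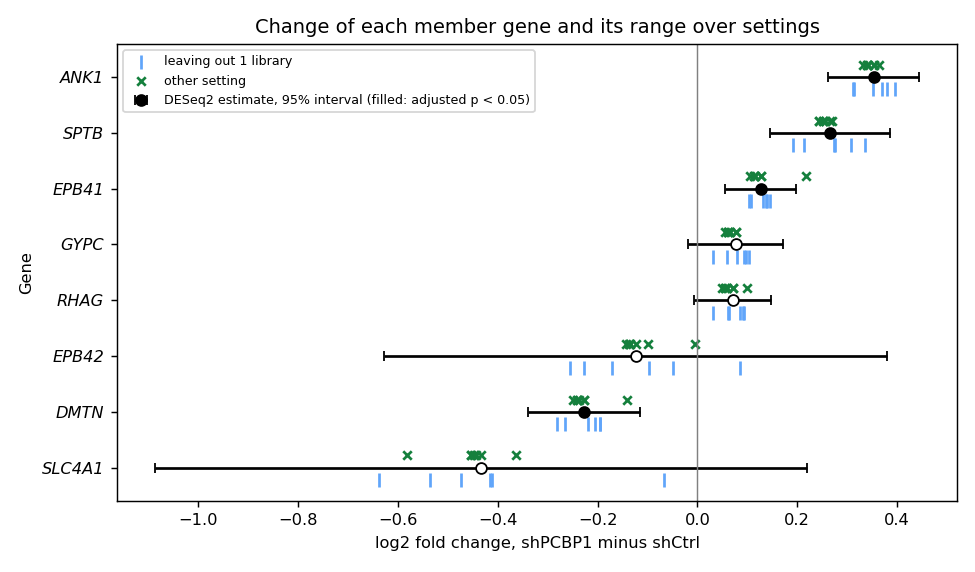
Log2 fold change of each member gene, shPCBP1 minus shCtrl, with its 95% interval (black, filled where the DESeq2 adjusted p is under 0.05), the values when 1 library is left out (blue ticks) and under other settings (green crosses). ANK1, SPTB and EPB41 stay above 0 and DMTN below 0 in all of them, while EPB42 crosses 0 and SLC4A1 ranges from -0.64 to -0.066.

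Ratios between members within a library do not depend on how libraries are scaled to each other. ANK1 to DMTN, a pair of members that passed in opposite directions, had TPM ratios of 1.61, 1.61 and 1.54 in shCtrl against 2.18, 2.33 and 2.25 in shPCBP1, a mean rise of 42.0%. The groups did not overlap, and the two-sided exact permutation p was 0.1, the smallest that 3 against 3 libraries allow. SPTB to DMTN rose from 0.601 ± 0.0348 to 0.786 ± 0.0178 (SD, n = 3; exact permutation p 0.1). EPB41 to DMTN rose from 1.59 ± 0.0479 to 2.05 ± 0.0860 (SD, n = 3; exact permutation p 0.1). These pairs were chosen with the gene results known and describe the same libraries. Partners in the ankyrin complex also separated, since ANK1 to RHAG was 0.201 to 0.208 in shCtrl and 0.240 to 0.251 in shPCBP1. The ratio of ANK1 to SPTB, which bind each other, was 2.65 ± 0.215 in shCtrl and 2.87 ± 0.0730 in shPCBP1 (SD, n = 3), and the groups overlapped (exact permutation p 0.2).

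**Figure D3:**
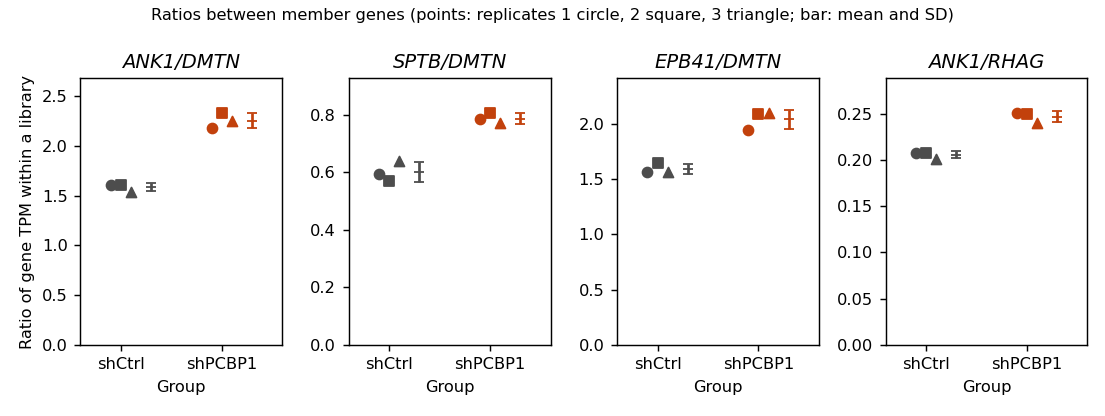
Ratio of gene TPM between pairs of member genes in each library, with each axis starting at 0, a symbol for each replicate number, and a bar for the group mean and SD (n = 3). In all 4 ratios the shPCBP1 libraries lie above the shCtrl libraries, with ANK1 to DMTN at 1.54 to 1.61 against 2.18 to 2.33.

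Over the 6 libraries, the genes most like ANK1 in log2 normalized count were UCK2 (a uridine kinase, Pearson r 0.9997), DDX21 (a nucleolar RNA helicase, 0.9997) and PPRC1 (a transcriptional coactivator, 0.9996), of 14173 genes compared. The 6 libraries fall into 2 groups, so such a likeness mostly describes the difference between them. Among the members, EPB41 (r 0.980) and SPTB (0.944) were most like ANK1, and DMTN was opposed (-0.643).

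SPTB was almost wholly the erythroid form. SPTB-202, with 2137 codons, held 95.6 ± 1.01% of SPTB TPM in shCtrl and 96.6 ± 0.481% in shPCBP1 (SD, n = 3). The muscle and brain form of beta-spectrin has a longer C-terminus, and its 2 models of 2328 codons were at 0 TPM in shCtrl and at 0.043 TPM or less in shPCBP1. RHAG was likewise dominated by a single model, RHAG-201 (409 codons), at 97.8 ± 0.340% and 94.8 ± 2.71%. Transcript shares are given here as a percentage of the TPM of the gene.

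ANK1 was split between a full-length and a short model. The full-length ANK1-205, with 1881 codons, held 51.3%, 52.1% and 52.2% in shCtrl against 49.7%, 46.9% and 44.8% in shPCBP1. ANK1-214, a model of 14 exons and 2012 bases that starts inside the gene and whose coding region is annotated as incomplete, held 32.3%, 33.1% and 28.5% in shCtrl against 33.6%, 35.7% and 34.8% in shPCBP1. The groups did not overlap for either model, but neither share differed by the limma test on log2 ratios (adjusted p 0.650 and 0.717). As a level, ANK1-214 went from 22.6, 22.01 and 19.2 TPM to 29.5, 31.2 and 29.0 TPM, a log2 difference of 0.49 (SE 0.0757, limma adjusted p 0.0425), on the log2 scale of TPM plus 0.1. It was the single member transcript to pass of 65 tested, where 1.54% of all transcripts passed, and it did not pass without any 1 of the 6 libraries (limma adjusted p 0.0645 to 0.135). This test of levels was added after the shares had been seen. The microRNA gene MIR486-1 lies in an intron of ANK1-214. ANK1-216, with 1854 codons, was at 1.6%, 0.761% and 2.06% in shCtrl against 3.51%, 5.52% and 6.52% in shPCBP1, without overlap (limma adjusted p 0.266). It falls below the 10% share used to choose transcripts and was picked after its values were seen.

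EPB41 was mostly a single model among 40. EPB41-231, with 601 codons, held 70.9 ± 1.20% in shCtrl and 67.3 ± 1.76% in shPCBP1 (SD, n = 3), without overlap between the groups, and the difference did not pass (limma adjusted p 0.688). With protein-coding transcripts only, the difference shrank from -3.59 to -0.69 points. EPB41-231 skips the 63-base exon printed above. Pooled over the 15 models that include that exon and the 19 that span and skip it, inclusion was 16.3%, 14.2% and 17.3% in shCtrl against 14.0%, 16.8% and 15.6% in shPCBP1. The means, 15.9 ± 1.57% and 15.5 ± 1.40% (SD, n = 3), differed by less than the spread within either group. For the most abundant choice, in which the exon is joined to the exon ending at 29053312, inclusion was 6.35%, 7.55% and 7.95% in shCtrl against 8.49%, 8.68% and 8.45% in shPCBP1 (limma adjusted p 0.709). The other choices of flanking exon were at 21.6 ± 13.1% and 20.4 ± 6.64% for the exon ending at 29058645, and at 97.3 ± 2.29% and 97.6 ± 1.34% for the one ending at 29058852 (SD, n = 3). Most EPB41 RNA in these cells thus lacked the exon in both groups.

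DMTN was spread over several models. DMTN-202 (405 codons) held 28.0%, 28.2% and 26.2% in shCtrl against 22.5%, 21.1% and 25.8% in shPCBP1, and the groups did not overlap (limma adjusted p 0.631). DMTN-223 (358 codons) held 22.03 ± 5.34% and 20.7 ± 5.08%, and DMTN-210, an incomplete coding model, 15.2 ± 0.943% and 17.7 ± 1.54% (SD, n = 3). GYPC-201, the 128-codon glycophorin C model, held 85.0 ± 0.877% and 83.5 ± 1.63%, and the 109-codon GYPC-203 held 11.6 ± 0.699% and 13.03 ± 1.48% (SD, n = 3). For SLC4A1, the full 911-codon SLC4A1-201 held at least 73.1% in every shCtrl library and at least 90.8% in every shPCBP1 library, and the rest was SLC4A1-204, a retained-intron model. EPB42 models varied most between libraries of a group, with EPB42-201 (691 codons) between 25.1% and 64.8%, EPB42-206 (721 codons) between 0% and 48.4%, and the short models EPB42-203 and EPB42-205 averaging 8.37% to 17.01% of a group, as counts of about 4 to 116 per model allow.

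Of the 64 member transcripts whose share was tested, 0 were called at a limma adjusted p under 0.05 and a difference over 5 points, and 5 had an unadjusted p under 0.05. Among all transcripts tested, 0.132% were called. An unadjusted p under 0.05 was found for 7.81% of the members' transcripts and 10.5% of all transcripts. Of 41 cassette exons tested in the members, 0 were called by limma, where 0.0344% of all exons were called. An unadjusted p under 0.05 was found for 2 member exons, 4.88% of those tested, against 9.95% of all exons. Both were in ANK1. An exon of 24 bases (chromosome 8, 41700431 to 41700454) had estimated inclusion of 10.8%, 7.14% and 12.9% in shCtrl against 13.3%, 18.4% and 20.1% in shPCBP1, without overlap (limma adjusted p 0.478). An exon of 84 bases (41663659 to 41663742), named because it had the lowest p, fell from 98.4 ± 0.719% to 94.5 ± 1.65% (SD, n = 3) and was not called (limma adjusted p 0.281). Inclusion was estimated from transcript abundance, not from junction reads. Over all genes this test called 13 of 37773 exons. The authors, using rMATS on reads mapped to the genome, reported far more skipped-exon changes after PCBP1 knockdown. The 0 calls therefore do not show that splicing of the members was unchanged.

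**Figure D4:**
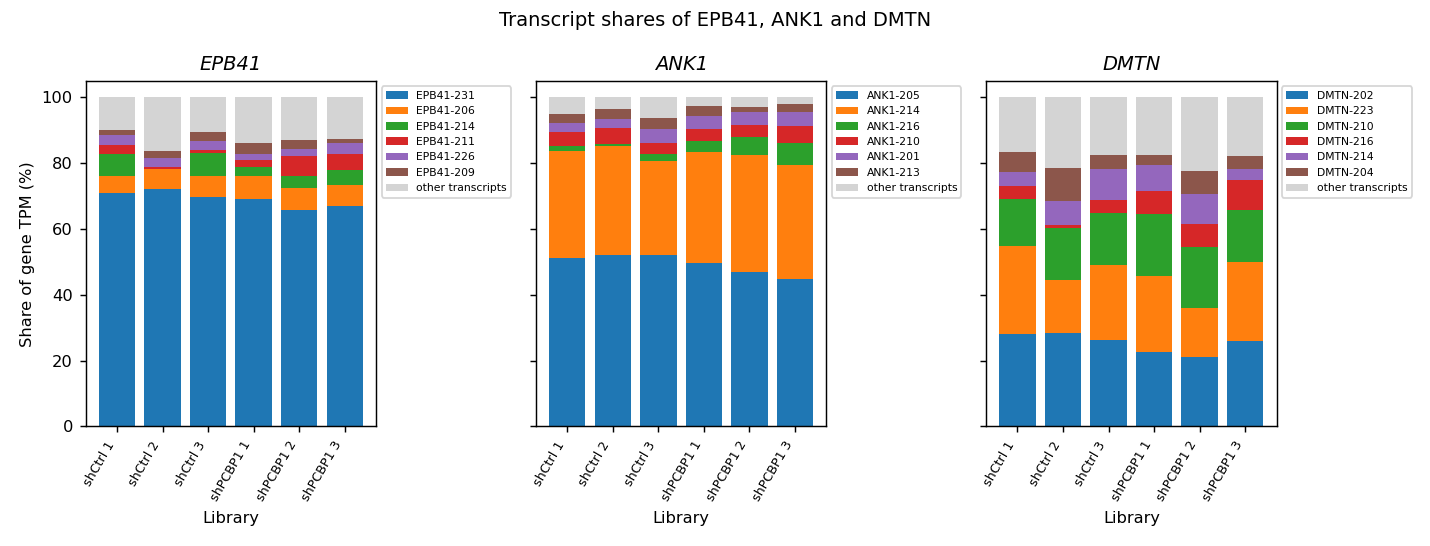
Share of gene TPM held by the 6 most abundant transcripts of EPB41, ANK1 and DMTN in each of the 6 libraries, in percent, with all other transcripts in grey. EPB41-231 takes 65.9% to 72.1% in every library, and the short ANK1-214 takes 28.5% to 35.7%.

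The other genes of the red cell membrane moved in both directions. Of a list of 36 membrane partners, 35 were tested and 16 passed, with 8 higher and 8 lower, a share of 45.7% beside the 31.2% of all genes. Their median log2 fold change was -0.024. Over the 13 alternatives the count ran from 11 to 19. Without shPCBP1 replicate 1 it was 11, with 4 higher and 7 lower, and with transcript length offsets it was 13, of which 9 were among the 16. The genes were grouped by role after their values had been seen, and the junction genes named next were chosen then too. Counts by role, here and below, are of few genes and stand beside the same 31.2% of all genes. Of the 9 skeleton and actin-junction genes, 3 rose and 2 fell. Among them, ADD1 (alpha-adducin) and ACTB (beta-actin) rose by 0.12 and 0.15. TMOD1 (tropomodulin-1, which caps the actin protofilament) fell by 0.16 and MPP1 (p55, bound to protein 4.1R and glycophorin C) fell by 0.12, all on the log2 scale. ACTB and MPP1 passed under all 13 alternatives, and ADD1 and TMOD1 under 8 of 13.

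Among 14 membrane glycoproteins and blood group carriers, 3 rose and 1 fell. CD44, the hyaluronan receptor, rose by 0.37 (SE 0.0824, DESeq2 adjusted p 5.93e-05) and ERMAP, the Scianna antigen, by 0.34 (SE 0.0782, DESeq2 adjusted p 9.16e-05). BCAM, the Lutheran laminin receptor, had 75.5, 92.4 and 103.7 normalized counts in shCtrl against 25.9, 26.1 and 72.0 in shPCBP1. It was the single partner past the size threshold, with a log2 value of -1.15 (SE 0.429, adjusted p 0.0275 by DESeq2) at low counts and with shPCBP1 replicate 3 close to the shCtrl libraries. BCAM passed under 5 of the 13 alternatives, and its adjusted p in the others reached 0.233. CD44 and ERMAP each passed under 12, CD44 not with transcript length offsets and ERMAP not without shPCBP1 replicate 1.

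Of the 9 transporters and channels tested, 2 rose and 4 fell. SLC2A1, the glucose transporter of the red cell, rose by 0.26 (SE 0.103, DESeq2 adjusted p 0.0405) and passed under 10 of 13 alternatives, not without shCtrl replicate 1, shPCBP1 replicate 1 or shPCBP1 replicate 3. ABCB6, a porphyrin transporter that carries the Langereis antigen, fell by 0.45 (SE 0.0645, DESeq2 adjusted p 1.01e-10), and KCNN4, the Gardos potassium channel, fell by 0.42 (SE 0.0585, DESeq2 adjusted p 3.13e-11). Of the 3 raft proteins, FLOT1 (flotillin-1) fell by 0.37 (SE 0.0381, DESeq2 adjusted p 8.29e-20) and the other 2 did not pass. ABCB6, KCNN4 and FLOT1 passed under all 13 alternatives.

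**Figure D5:**
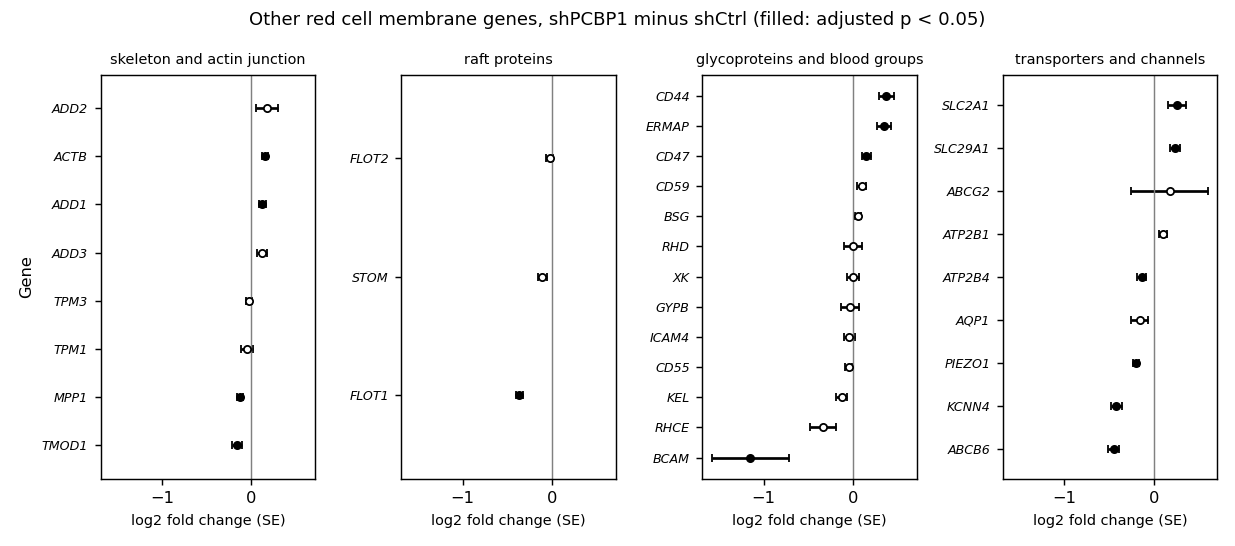
Log2 fold change, shPCBP1 minus shCtrl, of 33 of the membrane partner genes tested, grouped by role, with SE bars and filled points where the DESeq2 adjusted p is under 0.05. Of the genes plotted, 7 passed above 0 and 8 below it, and BCAM at -1.15 is the farthest from 0.

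Paralogs of the members were mixed in the same way, with 3 higher and 2 lower of 14 tested. The share passing was 35.7%, near the 31.2% of all genes. SPTBN1, the beta-spectrin of most other cells, had 7743, 7370 and 7094 normalized counts in shCtrl against 10282, 10105 and 9225 in shPCBP1 and rose by 0.42 (SE 0.0518, DESeq2 adjusted p 5.14e-14). ANK3, ankyrin-G, rose by 0.41 (SE 0.0874). Both were named after their values were seen. Of 9 erythroid regulators tested, TAL1, LMO2, GFI1B and MYB rose by 0.16 to 0.28, LDB1 fell by 0.16, and 4 did not pass. The share passing was 55.6% of these few genes, beside the 31.2% of all genes. GATA1 had a log2 fold change of -0.068 (DESeq2 adjusted p 0.119) and KLF1 of 0.071 (DESeq2 adjusted p 0.338), so the 2 factors whose motifs were searched in the promoters did not pass. For GATA1 the groups did not overlap, at 21466, 20916 and 21595 normalized counts in shCtrl against 20665, 20383 and 19975 in shPCBP1. Those of KLF1 overlapped.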

How the data were processed

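Poly-A RNA of 6 K562 libraries, 3 shCtrl and 3 shPCBP1, was sequenced as paired ends. Per the labels, the authors used Salmon 1.10.2 with hg38. The authors deposited, for each transcript, estimated counts, which are not normalized, and TPM, which is scaled on effective length. The annotation release of their index and the strand setting were not given in the sources used here. Of 252045 transcripts, 251612 matched GENCODE release 44, and those left unmatched held 0.136% to 0.147% of counts.

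Estimated counts were summed per gene, rounded and tested with DESeq2 1.42.0 (Wald, two-sided, median-of-ratios size factors, summed count of at least 10, Benjamini-Hochberg adjustment over all genes). Fold changes are unshrunken. Transcript shares, levels and cassette exons were tested with limma 3.58.1 with a trend, on log2 values with a pseudocount of 0.1 TPM and a mean count of at least 10. Other versions were R 4.3.3, edgeR 4.0.16 and Python 3.11.15. The tests were checked on simulated data with changes far larger than those of the member genes. That check does not cover changes of the size reported here.

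The members and gene lists were chosen with earlier results of these data known. Genes named were all members, the 3 largest rises and falls among passing partners with a mean count of at least 100 and any past a log2 fold change of 1, transcripts with a mean share of at least 10%, the EPB41 exon, exons called or otherwise up to 3 with separate groups and over 5 points, and the 3 genes most like ANK1. Others, such as the junction genes, ANK1-216 and the 84-base exon, were named after their values were seen. Alternatives covered edgeR, TMM, length offsets, filters, pseudocounts, a replicate block and leaving out each library. ANK1, DMTN and SLC4A1 promoters were not analysed here. A few listed genes are counted but not reported by name.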

Additional observations from a re-analysis of the deposited data

How the results depend on the processing

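The members passing numbered 4 under each alternative except without shCtrl replicate 2, where SLC4A1 made 5. With transcript length offsets SLC4A1 passed (-0.58, adjusted p 0.0289) and DMTN did not (-0.14, adjusted p 0.118, DESeq2). SPTB, ANK1 and EPB41 passed under all 13 alternatives, with log2 fold changes of 0.19 to 0.34, 0.31 to 0.40 and 0.10 to 0.22, and EPB42, GYPC and RHAG passed under none. EPB42 ran from -0.26 without shCtrl replicate 2 to 0.086 without shCtrl replicate 3. Replicate numbers did not pair the libraries, since deviations from the group means correlated at -0.0331 to 0.0387, and with the replicate block 4 members passed. Testing transcript levels in place of shares, added after seeing the data, called 1 transcript. Partners passing ranged from 11 to 19. Low counts limit EPB42, and the spread within shCtrl limits SLC4A1.

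Of 172 alternative values of the named shares, 162 kept their direction and their side of the threshold. Leaving out single libraries took the difference in share of EPB42-206 from -12.9 to 15.5 points (-8.67 without shCtrl replicate 1, -5.63 without shCtrl replicate 3) and that of DMTN-223 from -4.20 to 1.59 (1.09 without shCtrl replicate 1). It took inclusion of the EPB41 exon after the exon ending at 29058645 from -7.85 to 5.29 points (2.45 without shPCBP1 replicate 3), and protein-coding transcripts only gave 13.1. After the exon ending at 29058852 the range was -1.01 to 1.09 (-0.35 without shPCBP1 replicate 1). None of these shares was called, and the cause was not tested.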
